A study of Mus musculus with 15 samples.

Results

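The genes of the constitutive proteasome and of its assembly were read in the RNA of 4T1 cells, a mouse mammary carcinoma line. They were taken by symbol, as Psma, Psmb, Psmc, Psmd, Psme, Psmf or Psmg followed by a number, without Psmb8, Psmb9 and Psmb10, the 3 subunits of the immunoproteasome, and without pseudogenes. This gave 45 of the 14583 genes listed in at least 1 of 4 comparisons, and all 45 were listed in each of the 4, which share 12686 genes. Psmc3ip, a partner of meiotic recombination factors, matched by the letters of its name only and is described apart. The other 44 genes were 14 subunits of the 20S core particle (7 alpha and 7 beta), 17 of the 19S regulatory particle (6 ATPases and 11 non-ATPases), 7 assembly chaperones (3 of the 19S particle and 4 of the 20S core), 5 activators and Psmf1. No measured value was used to choose them.

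The 15 samples fell into 5 groups of 3. In 3D, Padi4 WT and Padi4 KO spheroids were grown for 3 d in low-attachment plates and a further 7 d in 75% Matrigel. Padi4 is the enzyme that citrullinates histones during nuclear expulsion. In 2D, cells in 2% FBS received vehicle, the nuclear expulsion products (NEPs) of dying Padi4 WT cells or the apoptotic debris (apoDBs) of dying Padi4 KO cells, where donors carried an inducible caspase-9 (iCasp9) and were killed with AP1903, at 5000 donor cells to 500 recipients. The recipients in 2D were Padi4 KO cells according to the Methods of the study, so that the vehicle controls carried the knockout too. For each gene a fold change and a limma p-value of each comparison were read, and values per sample were not analysed here. The spread between replicates therefore enters only through the p-value, and the depth is unknown. The labels do not say that the 3 samples of a group came from separate cultures.

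Proteasomes degrade proteins tagged with ubiquitin. The 20S core is a barrel of outer alpha rings and inner beta rings, in which Psmb5, Psmb6 and Psmb7 carry the proteolytic sites, and the 19S particle on its end binds, unfolds and feeds in the substrate. Under interferon, cells replace the proteolytic subunits by Psmb8, Psmb9 and Psmb10 and produce the ring activator of Psme1 and Psme2, which opens the core without the 19S particle. The transcription factor Nfe2l1 is known to raise the genes of the constitutive subunits together when proteasome activity is short.

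Genes were called where the FDR was below 0.05, that is, limma's p-value after Benjamini-Hochberg adjustment across every gene of that comparison. In spheroids, 15 of the 44 proteasome genes were higher in Padi4 WT than in Padi4 KO cells and 1 was lower, where 21.7% of all 14053 genes were higher and 26.1% lower. With NEPs against vehicle, 30 of 44 were higher and none was lower, against 24.3% and 31.1% of 13541 genes. With apoDBs against vehicle, 19 of 44 were higher and none was lower, against 22.9% and 22.6% of 13307 genes. With NEPs against apoDBs, 18 of 44 were higher and 1 was lower, against 23.4% and 31.4% of 13419 genes. The share of proteasome genes called higher was thus 34.1%, 68.2%, 43.2% and 40.9%, above the share of all genes each time, and most of the changes were small. The median log2 fold change over the 44 genes was 0.31, 0.33, 0.17 and 0.11, beside -0.08, -0.05, 0.01 and -0.06 over all genes. In these bulk samples, fewer cells of a kind and less RNA per cell cannot be told apart, nor can the RNA of donor and recipient cells in 2D.

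**Figure D1:**
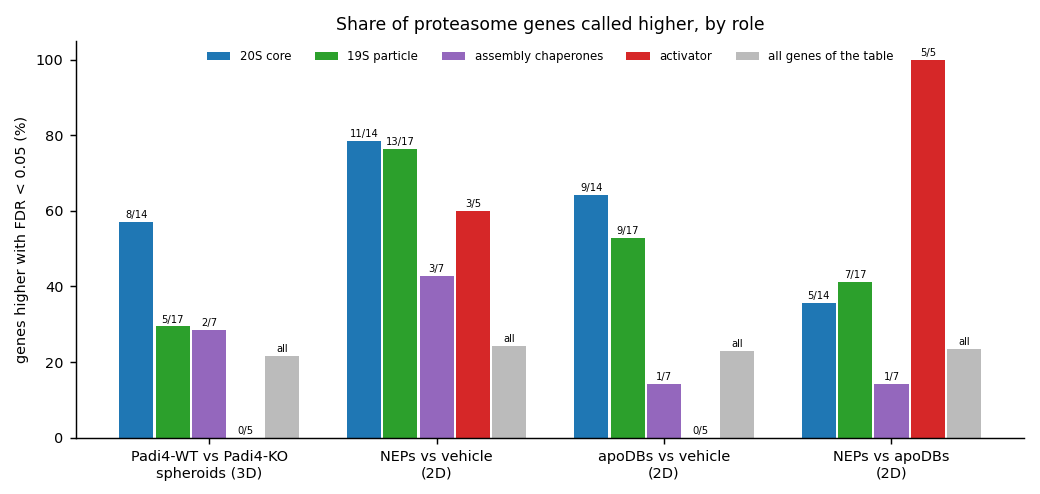
Share of proteasome genes called higher at an FDR below 0.05 by role (coloured bars, percent, with counts above them) in each of the 4 comparisons, beside the share of all genes (grey bars). With NEPs against vehicle 11 of 14 subunits of the 20S core and 13 of 17 of the 19S particle were called, and with NEPs against apoDBs all 5 activators.

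The stricter limits by which the study picked its signature genes (log2 fold change past 2 in either direction, FDR under 0.0001) called 0 of 44 genes in every comparison. They called 4.05% of all genes in spheroids, 2.65% with NEPs against vehicle, 0.233% with apoDBs against vehicle and 2.21% with NEPs against apoDBs. At an unadjusted limma p below 0.05 the numbers of proteasome genes were 22, 34, 22 and 21 of 44 in the same order. Over all genes they were 7757 of 14053, 8236 of 13541, 7156 of 13307 and 8033 of 13419. At this limit the share of proteasome genes was above that of all genes with NEPs against vehicle only. Proteasome genes moved by amounts well inside the limits of the study.

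The subunits of the 20S core were higher in Padi4 WT spheroids, all 14 with a fold change above 1 and 8 of 14 called (57.1%). Their median log2 fold change was 0.46, a 1.37-fold difference. Psmb4, a beta subunit without a proteolytic site, had the highest value of the 44 genes at 2.50-fold (log2 fold change 1.32, FDR 0.0013). Psma5, an alpha ring subunit, was 2.35-fold higher (1.23, FDR 0.00015). Psmb2, another beta subunit without a proteolytic site, followed at 1.70-fold (0.76, FDR 0.0081). Among the other alpha subunits, Psma7 was higher by 0.59 on the log2 scale (FDR 0.029) and Psma2 by 0.54 (FDR 0.0077). The lowest of the alpha subunits was Psma4, with a log2 fold change of 0.14 (FDR 0.34), and the lowest of the beta subunits Psmb1, with 0.26 (FDR 0.12).

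With NEPs against vehicle the core was again higher throughout, with 11 of 14 called and a median log2 fold change of 0.45. Psma5 was 1.82-fold (0.87, FDR 2.0e-06) and Psmb4 1.79-fold higher (0.84, FDR 2.6e-06). Psmb7, which carries the trypsin-like site, was 1.55-fold higher, Psma3 1.52-fold and Psma1 1.45-fold. The members that were not called were Psma7, Psmb3 and Psmb6, with log2 fold changes of 0.13, 0.07 and 0.17. With apoDBs against vehicle 9 of 14 were called, with a median of 0.25, and the highest was Psma2 at 1.37-fold (0.45, FDR 0.00099), followed by Psmb7 at 1.33-fold. Psmb3 was at the other end with -0.00 (FDR 0.96). Both of these comparisons use the same 3 vehicle samples and are given side by side only.

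The direct comparison of NEPs with apoDBs called 5 of 14 core subunits higher (35.7%), beside 23.4% of all genes, with a median log2 fold change of 0.11. The 5 were Psma5 (1.55-fold, FDR 2.3e-06), Psmb4 (1.54-fold, FDR 3.8e-06), Psma3 (1.39-fold, FDR 8.1e-05), Psma1 (1.20-fold, FDR 0.0014) and Psmb7 (1.17-fold, FDR 0.0073). Psma3 shared 22.0% of its runs of 50 bases with the pseudogene Gm13835, so its values are less certain. The lowest was Psmb1 with -0.11 (FDR 0.081). Thus 4 of the 7 alpha subunits and 5 of the 7 beta subunits were not called between the debris types. The share of beta subunits called higher, 28.6%, was near that of all genes.

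**Figure D2:**
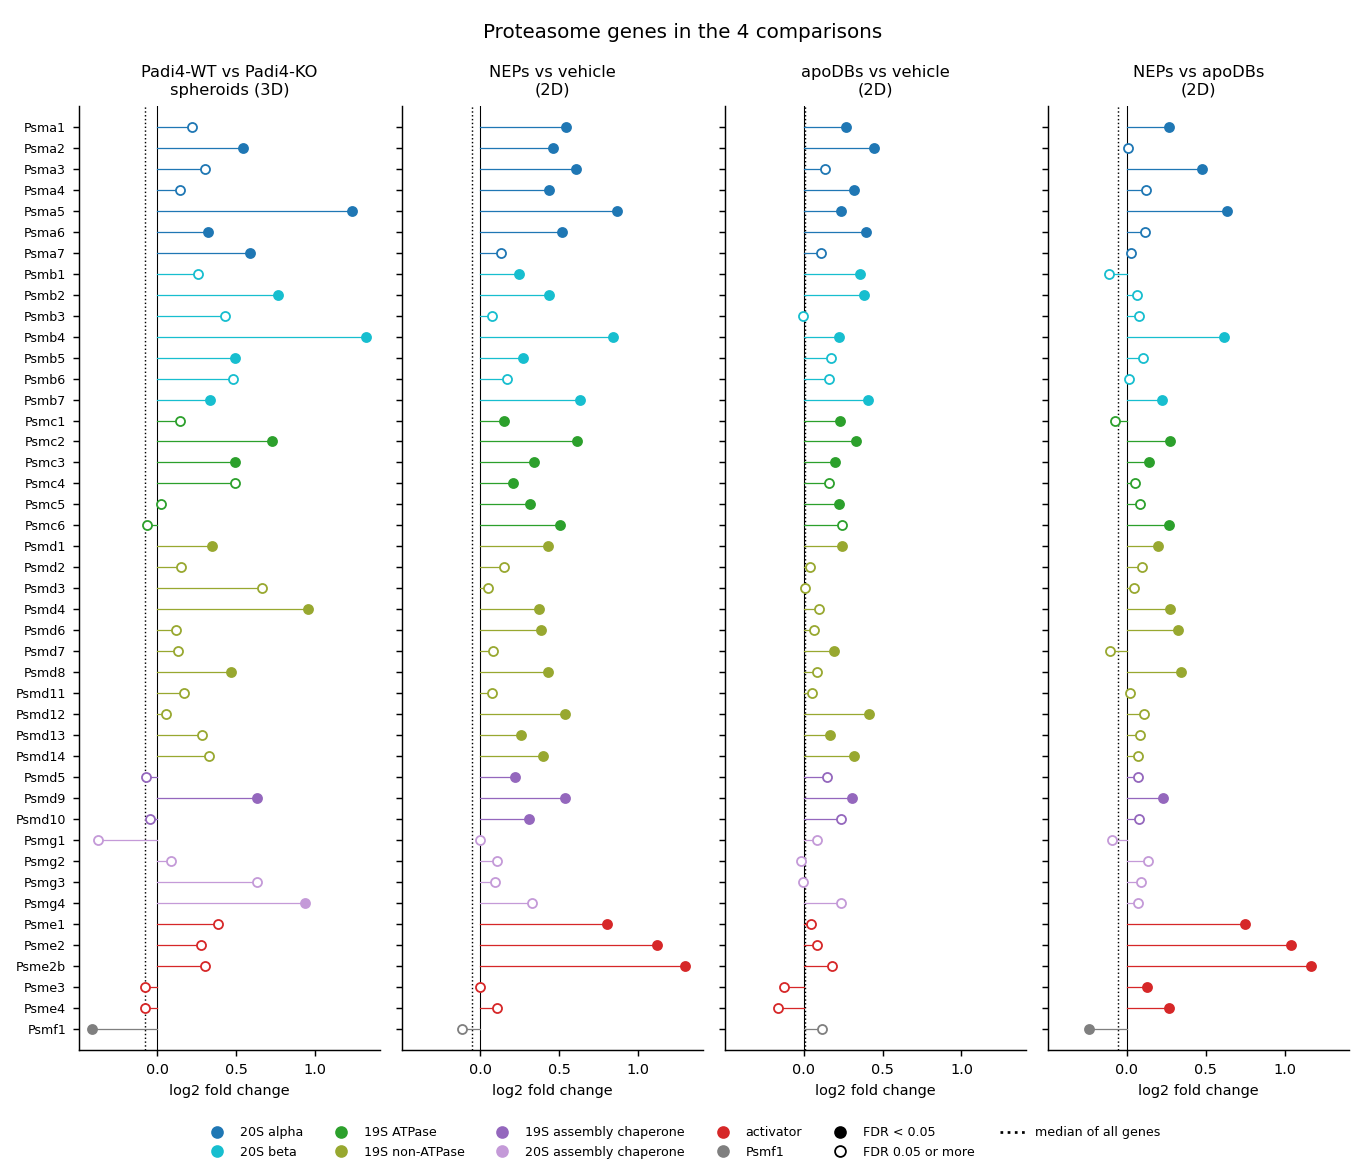
Log2 fold change of each of the 44 proteasome genes (rows, grouped by role) in the 4 comparisons (columns), with filled points at an FDR below 0.05 and a dotted line at the median of all genes. Psma5 and Psmb4 stand out in spheroids at 1.23 and 1.32, and Psme1, Psme2 and Psme2b with NEPs at 0.80, 1.12 and 1.29 against vehicle.

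The 6 ATPases of the 19S particle form the ring that unfolds the substrate. Of these, 2 were called higher in Padi4 WT spheroids (33.3%) and 6 with NEPs against vehicle (100%). With apoDBs against vehicle 4 were called higher (66.7%), and with NEPs against apoDBs 3 (50%). The shares of all genes called higher were 21.7%, 24.3%, 22.9% and 23.4% in the same order. Psmc2 had the highest value of the ATPases in all 4 comparisons, at 1.65-fold (FDR 0.0015), 1.53-fold (FDR 3.0e-05), 1.26-fold (FDR 0.0046) and 1.21-fold (FDR 0.0013). Psmc3 was also higher in all 4, by 1.41-fold, 1.27-fold, 1.15-fold and 1.10-fold. Psmc6 had a log2 fold change of -0.06 in spheroids (FDR 0.74) and was 1.42-fold higher with NEPs than with vehicle (FDR 0.00072). The lowest ATPase was Psmc1 with NEPs against vehicle (0.15, FDR 0.039) and against apoDBs (-0.08, FDR 0.24), and Psmc4 with apoDBs against vehicle (0.16, FDR 0.061).

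The 11 non-ATPase subunits, which include ubiquitin receptors and the deubiquitinase Psmd14, were called higher in 3, 7, 5 and 4 cases. These are shares of 27.3%, 63.6%, 45.5% and 36.4%, of which the share in spheroids was near the 21.7% of all genes. In spheroids the 3 non-ATPases called were Psmd4, Psmd8 and Psmd1. Psmd4, a ubiquitin receptor, was 1.94-fold higher in Padi4 WT spheroids (0.96, FDR 0.0038), 1.29-fold higher with NEPs than with vehicle (0.37, FDR 0.0013) and 1.21-fold higher with NEPs than with apoDBs (0.28, FDR 0.0013), while with apoDBs against vehicle its value was 0.10 (FDR 0.31). Psmd1, a scaffold of the base, was higher in all 4 comparisons, between 1.14-fold and 1.35-fold. Psmd12, a lid subunit, had the highest value with NEPs against vehicle (1.45-fold, FDR 6.25e-05) and with apoDBs against vehicle (1.33-fold, FDR 0.0020), yet the lowest in spheroids (0.05, FDR 0.72). Psmd8 was the highest with NEPs against apoDBs (1.27-fold, FDR 0.00024) and Psmd7 the lowest (-0.10, FDR 0.095). Psmd3 had the lowest value against vehicle with both NEPs (0.05, FDR 0.65) and apoDBs (0.01, FDR 0.95), and its 0.66 in spheroids did not pass the test (FDR 0.068). Psmd2 and Psmd11 were called in no comparison.

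The 19S assembly chaperones guide the ATPases into a ring. Psmd9 was higher in all 4 comparisons, by 1.55-fold (FDR 0.0091), 1.45-fold (FDR 0.00098), 1.24-fold (FDR 0.032) and 1.17-fold (FDR 0.025). Psmd10 and Psmd5 were called with NEPs against vehicle only, at 1.24-fold and 1.17-fold, and in spheroids they were at -0.05 and -0.07. Whether these effects differed between comparisons was tested for NEPs against apoDBs alone, where Psmd10 (0.08, FDR 0.35) and Psmd5 (0.07, FDR 0.27) did not pass. The 20S assembly chaperones pair up to build the alpha ring. Psmg4 was called in spheroids at 1.91-fold (0.94, FDR 0.0069), and its values in 2D were 0.32, 0.24 and 0.07, none past the test. Psmg1 had the lowest value of the group in spheroids, -0.37 (FDR 0.069), and Psmg1, Psmg2 and Psmg3 were called in no comparison.

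Psme1, Psme2 and Psme2b had the highest values of the 44 genes between NEPs and apoDBs. Relative to vehicle, Psme2b with NEPs was 2.45-fold (1.29, FDR 0.00019), Psme2 2.17-fold (1.12, FDR 2.9e-07) and Psme1 1.74-fold higher (0.80, FDR 3.2e-06). Psme1 and Psme2 encode the ring activator induced by interferon, and Psme2b is a near copy of Psme2. With apoDBs against vehicle the same 3 genes had log2 fold changes of 0.18 (FDR 0.41), 0.09 (FDR 0.30) and 0.05 (FDR 0.53). In the direct comparison of NEPs with apoDBs they were higher by 2.25-fold (FDR 0.00011), 2.06-fold (FDR 1.6e-07) and 1.68-fold (FDR 5.1e-07).

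Psme3, which forms a nuclear activator of its own, and Psme4, an activator of a single large chain, moved little. Psme3 was at 0.00 (FDR 0.998) with NEPs and -0.13 (FDR 0.10) with apoDBs against vehicle, and 0.13 (FDR 0.040) between them. Psme4 was at 0.10 (FDR 0.20), -0.16 (FDR 0.11) and 0.27 (FDR 0.0031). All 5 activators were thus called higher with NEPs than with apoDBs, 3 of them by at least 1.68-fold and Psme3 and Psme4 by 1.09-fold and 1.20-fold. In spheroids none of the 5 was called, with log2 fold changes of 0.38 for Psme1 (FDR 0.10), 0.28 for Psme2 (FDR 0.12), 0.30 for Psme2b (FDR 0.51), -0.07 for Psme4 (FDR 0.72) and -0.08 for Psme3 (FDR 0.63). The difference between the effects in spheroids and in 2D was not tested.

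Reads of Psme2 and Psme2b can be hard to assign. Of the runs of 50 bases in the Psme2 transcript, 59.3% occur in Psme2b (GENCODE M21, GRCm38), and 68.7% of those of Psme2b occur in Psme2, so the values of this pair are uncertain as separate genes. How reads with several matches were counted was not given in the sources used here. Psme1 (chr14:55578123-55581529, plus strand) and Psme2 (chr14:55587441-55591113, minus strand) are neighbours on chromosome 14, while Psme2b lies on chromosome 11 (chr11:48945354-48946190, minus strand). Psme1 shared 14.1% of its runs with other genes, and it overlaps Emc9 on the opposite strand.

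Psmf1, first described as an inhibitor of the 20S core, was the gene called lower in spheroids and with NEPs against apoDBs, and no other of the 44 was called lower in any of the 4 comparisons. It was 1.33-fold lower in Padi4 WT than in Padi4 KO spheroids (-0.41, FDR 0.037) and 1.18-fold lower with NEPs than with apoDBs (-0.24, FDR 0.0087). Against vehicle its values were -0.12 with NEPs (FDR 0.17) and 0.12 with apoDBs (FDR 0.18).

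The constitutive proteolytic subunits were set beside the interferon-induced subunits that take their place. With NEPs against apoDBs, Psmb8 was 12.5-fold higher (FDR 8.2e-10) while its partner Psmb5 was at 0.10 on the log2 scale (FDR 0.24). Psmb9 was 6.15-fold higher (FDR 7.2e-07) while Psmb6 was at 0.01 (FDR 0.86). Psmb10 was 2.20-fold (FDR 9.8e-06) and Psmb7 1.17-fold higher. Between NEPs and vehicle, Psmb8, Psmb9 and Psmb10 were 12.3-fold, 8.23-fold and 2.37-fold higher, beside 1.21-fold for Psmb5, 1.55-fold for Psmb7 and a log2 fold change of 0.17 for Psmb6 that did not pass the test (FDR 0.054). With apoDBs against vehicle Psmb7 was 1.33-fold higher and the other 5 did not pass the test, with log2 fold changes of 0.01 for Psmb8 beside 0.17 for Psmb5, 0.50 for Psmb9 beside 0.16 for Psmb6, and 0.12 for Psmb10. In spheroids Psmb8 was 4.95-fold (FDR 0.0017) and Psmb9 3.36-fold higher (FDR 0.0047), Psmb10 did not pass the test (0.92, FDR 0.055), and Psmb5, Psmb6 and Psmb7 were at 0.49 (FDR 0.031), 0.48 (FDR 0.058) and 0.33 (FDR 0.045). Within each comparison, no test of one gene against its partner was made. Psmb5 shared 57.1% of its 50-base runs with other genes, 49.4% with the pseudogene Gm3375, so its values are less certain. Psmb8, Psmb9 and Psmb10 shared none.

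**Figure D3:**
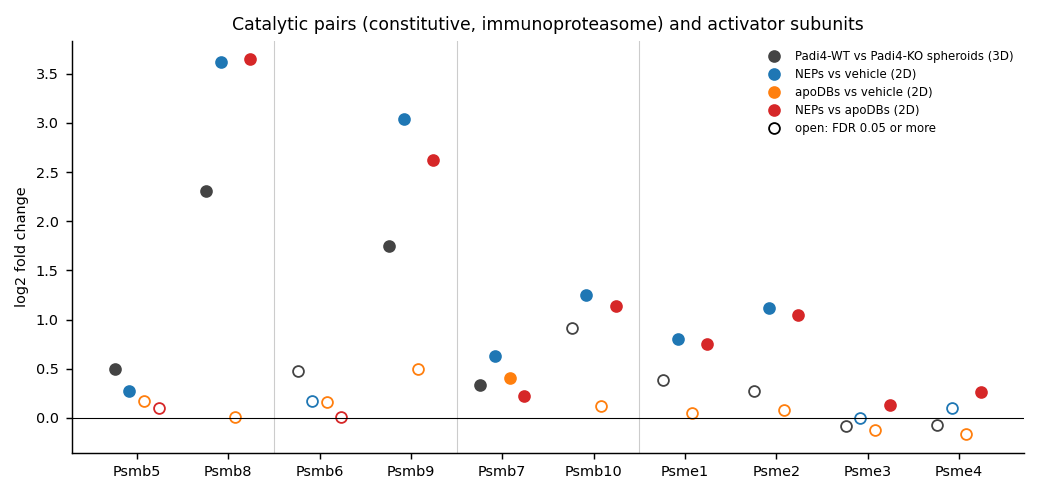
Log2 fold change of the constitutive proteolytic subunits Psmb5, Psmb6 and Psmb7 and of the immunoproteasome subunits Psmb8, Psmb9 and Psmb10 that replace them, and of 4 activators, in the 4 comparisons (colours), with open points at an FDR of 0.05 or more. With NEPs against apoDBs Psmb8 is at 3.65 and Psmb5 at 0.10, and with apoDBs against vehicle Psmb8 is at 0.01 and Psmb5 at 0.17.

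Over the 4 comparisons, 7 genes were called higher in all 4 (Psma5, Psmb4, Psmb7, Psmc2, Psmc3, Psmd1 and Psmd9), 6 in 3, 14 in 2, 8 in 1 and 9 in none. Thus 15.9% of the proteasome genes were called higher in all 4, beside 1.69% of the 12686 genes that the comparisons share. These 7 comprise 3 subunits of the core, 3 of the 19S particle and a chaperone. The comparisons in 2D share samples, so these numbers are not of independent tests. Psmb3, Psmb6, Psmd2, Psmd3, Psmd11, Psmg1, Psmg2 and Psmg3 were called in neither direction in any comparison. Of these, Psmb3 shared 55.8% of its 50-base runs with other genes, Psmd2 26.4%, Psmg3 22.7% and Psmd11 14.0%, so their values are less certain. No gene was called higher in 1 comparison and lower in another.

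The spheroids and the comparison of NEPs with apoDBs share no sample. Of the 15 genes higher in Padi4 WT spheroids and the 18 higher with NEPs than with apoDBs, 9 were the same (Psma5, Psmb4, Psmb7, Psmc2, Psmc3, Psmd1, Psmd4, Psmd8 and Psmd9), which is 60% of the first list and 50% of the second. Over all 12999 genes of both comparisons, 1054 were in both lists, 37.8% of the 2785 higher in spheroids and 34.8% of the 3029 higher with NEPs. The lists of proteasome genes are short, and the overlap was not tested. Across the 44 genes, Spearman's rho of the log2 fold changes was 0.180, beside 0.187 across the 12999 genes of both comparisons. Without the 3 genes on chromosome 3 it was 0.030 across 41 genes. Subunits of a complex are not independent of each other, and these values describe the lists only.

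**Figure D4:**
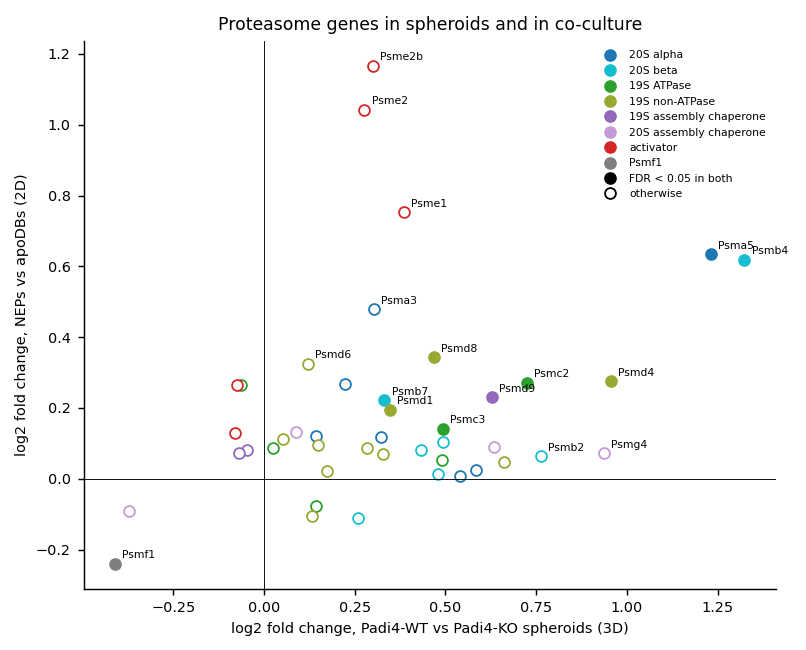
Log2 fold change in spheroids (Padi4 WT against Padi4 KO, horizontal axis) and in 2D (NEPs against apoDBs, vertical axis) for the 44 proteasome genes, coloured by role and filled where the FDR was below 0.05 in both. Psma5 and Psmb4 are high on both axes, and Psme1, Psme2 and Psme2b on the vertical axis.

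Psma5 (chr3:108256926-108279974, plus strand), Psmb4 (chr3:94884093-94886961, minus strand) and Psmd4 (chr3:95032694-95042614, minus strand) lie on chromosome 3 (GRCm38). They were the 3 highest of the 44 genes in spheroids. The genes of chromosome 3 as a whole were also higher, with a median log2 fold change of 0.36 over 749 genes in spheroids, and with NEPs 0.30 over 681 genes against vehicle and 0.30 over 677 against apoDBs. Each of these was the highest median of the 20 chromosomes. With apoDBs against vehicle the median over 658 genes of chromosome 3 was -0.00, in place 14.

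Each of the 3 genes was therefore set beside the 50 listed genes around it in order of position, as many on each side. Psmb4 and Psmd4 lie close together, so their neighbourhoods can share genes and are not separate references. Psma5 exceeded their median by 1.11 in spheroids, and with NEPs by 0.57 against vehicle and 0.25 against apoDBs. Psmb4 exceeded it by 0.83, 0.63 and 0.37. Psmd4 exceeded it by 0.48, 0.23 and 0.02, so that with NEPs against apoDBs its log2 fold change of 0.28 was close to that of its neighbourhood, 0.26. The part of the chromosome in these results was not tested. Psma5 shared 54.5% of its 50-base runs with other genes, 37.2% with the pseudogene Gm8394, and Psmb4 and Psmd4 shared none. Without the 3 genes, 12 of 41 proteasome genes were called higher in Padi4 WT spheroids, beside 21.7% of all genes. Their median log2 fold change was then 0.30 over the 41 genes.

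The neighbourhoods of some other genes with large values were read in the same way. The medians of the 50 genes around each with NEPs against apoDBs were -0.04 for Psme1, -0.03 for Psme2 and -0.00 for Psme2b, beside their own 0.75, 1.04 and 1.17. For Psmg4 in spheroids the median was -0.08, beside its 0.94. For Psmc2 it was 0.10 in spheroids and 0.17 with NEPs against apoDBs, beside 0.72 and 0.27.

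**Figure D5:**
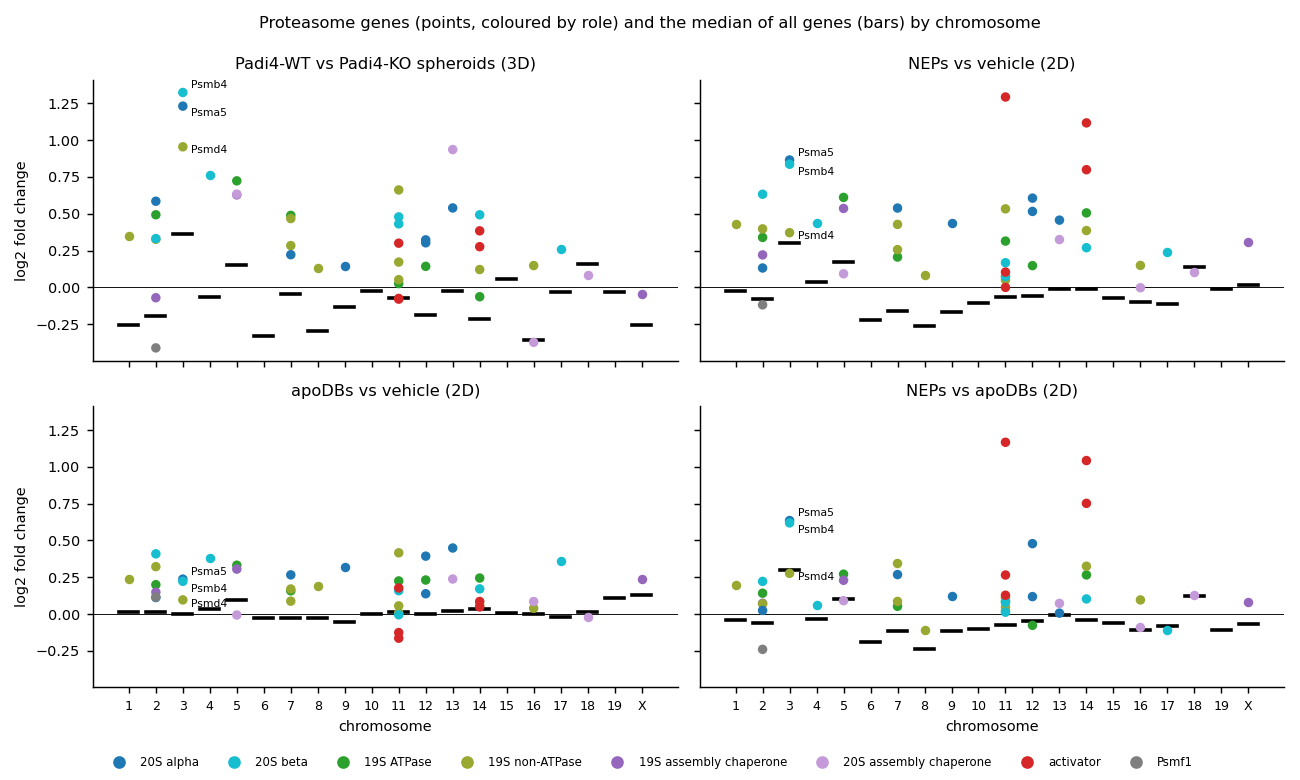
Log2 fold change of the 44 proteasome genes by chromosome (points, coloured by role) in the 4 comparisons, with the median over all genes of each chromosome as a bar. The bar of chromosome 3 is at 0.36 in spheroids and 0.30 with NEPs, and at -0.00 with apoDBs against vehicle.

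Promoters were read for motifs of factors known to act on proteasome genes, in windows of 300 bases (250 before to 50 after the start site) that RefSeq gives on GRCm38.p6 for 37 of the 44 genes. The interferon response motif, which is GAAA, any 2 bases and GAAA on either strand, was found in 5 of 37 (13.5%), namely Psmb3, Psmd4, Psmd9, Psme1 and Psmg4, beside 3.99% of all 27025 genes with a window and 3.67% of the 8558 of them listed in all 4 comparisons. The following are shown for the activator Psme1, for Psmd4 and for the chaperone Psmd9, each 5′ to 3′ in the direction of the gene with the motif in capitals (TTTC, any 2 bases and TTTC where it is on the opposite strand).
Psme1, chr14:55578493-55578522, plus strand: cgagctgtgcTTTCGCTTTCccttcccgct
Psmd4, chr3:95042655-95042724, minus strand: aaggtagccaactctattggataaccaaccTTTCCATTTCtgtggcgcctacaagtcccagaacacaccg
Psmd9, chr5:123228001-123228070, plus strand: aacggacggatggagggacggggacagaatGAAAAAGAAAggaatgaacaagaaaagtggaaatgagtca

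In Psme1 the motif lies 10 to 19 bases after the start site, within the transcribed part of the gene, and in Psmd4 and Psmd9 it spans positions -80 to -71 and -159 to -150 from that site. The genes with the motif were not uniform in their values. In spheroids 3 of the 5 were called higher, beside 9 of the 32 without the motif. Against vehicle these numbers were 3 and 23 with NEPs, and 1 and 13 with apoDBs. With NEPs against apoDBs, Psme1 was at 0.75, Psmd4 at 0.28, Psmd9 at 0.23, Psmb3 at 0.08 and Psmg4 at 0.07, and 3 of the 5 were called higher, beside 13 of the 32 without the motif. In Psme2 and Psme2b, which rose the most, these letters were not in the window.

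The core of the antioxidant response element, TGACNNNGC, which factors such as Nfe2l1 bind, was found in 6 of 37 windows (16.2%), beside 14.0% of all genes and 17.3% of those listed in all 4 comparisons. It was in Psmb5, Psmb6, Psmc6, Psmd9, Psmd12 and Psme4. The windows of the proteolytic subunits Psmb5 and Psmb6 and of Psmd9, which was called in all 4 comparisons, are shown with the motif in capitals, 5′ to 3′ in the direction of the gene.
Psmb5, chr14:54618004-54618072, minus strand: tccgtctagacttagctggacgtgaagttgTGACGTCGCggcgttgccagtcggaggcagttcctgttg
Psmb6, chr11:70525318-70525356, plus strand: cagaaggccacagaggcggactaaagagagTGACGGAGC
Psmd9, chr5:123228129-123228189, plus strand: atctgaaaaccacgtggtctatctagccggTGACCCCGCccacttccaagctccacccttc

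The medians of the 6 genes with this motif were 0.27 in spheroids, 0.39 for NEPs and 0.21 for apoDBs against vehicle, and 0.17 for NEPs against apoDBs, beside 0.30, 0.37, 0.16 and 0.10 for the 31 without it. CCAAT was in 12 of 37 windows (32.4%), beside 41.1% of all genes. CCGGAAG, a motif of Ets factors that was added after values had been seen, was in 14 of 37 (37.8%), beside 9.93% of all genes and 21.4% of those listed in all 4 comparisons. Both were searched on both strands. These are matches of letters and not sites of binding.

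Of 23 other genes of the pathway, 22 were listed, among them the assembly factor Pomp, ubiquitin genes, shuttle factors and the transcription factors of proteasome genes. In spheroids 3 were called higher and 6 lower, from Ubb, a ubiquitin gene, at 0.54 (FDR 0.049) to Ubqln2, a shuttle factor, at -0.92 (FDR 0.0013). With NEPs against vehicle 7 were higher and 4 lower, from Uchl5, a deubiquitinase of the proteasome, at 0.51 (FDR 0.00078) to Ubqln2 at -0.51 (FDR 0.0022). With apoDBs against vehicle 11 were higher and 2 lower, from Pomp at 0.56 (FDR 0.00039) to Nfe2l1 at -0.54 (FDR 0.00099). With NEPs against apoDBs 4 were higher and 6 lower, from Usp14, another deubiquitinase of the proteasome, at 0.29 (FDR 0.0026) to Ubqln2 at -0.96 (FDR 7.9e-06). These genes were called in both directions in every comparison, and no subunit of the core or of the 19S particle was called lower in any. Over all genes, 21.7%, 24.3%, 22.9% and 23.4% were called higher, and 26.1%, 31.1%, 22.6% and 31.4% lower, in the same order. The median log2 fold change of the 22 genes was 0.05, 0.10, 0.22 and -0.04. Over the 44 proteasome genes it was 0.31, 0.33, 0.17 and 0.11, so with apoDBs against vehicle the 22 genes had the higher median. Nfe2l1 was also lower with NEPs than with vehicle (-0.44, FDR 0.00049). These are values of RNA only, and the part of Nfe2l1 in the values of the proteasome genes was not tested.

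Psmc3ip was higher in all 4 comparisons, by 3.40-fold in Padi4 WT spheroids (FDR 0.00040), 1.77-fold with NEPs against vehicle (FDR 4.4e-05), 1.40-fold with apoDBs against vehicle (FDR 0.0028) and 1.28-fold with NEPs against apoDBs (FDR 0.0022). It is no proteasome subunit and enters no count above.

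As checks of the labels, Padi4 was 4.18-fold higher in Padi4 WT than in Padi4 KO spheroids (FDR 0.00054). In 2D, where the recipients were Padi4 KO cells, Padi4 was 2.01-fold higher with NEPs than with apoDBs (FDR 1.2e-06) and 1.80-fold lower with apoDBs than with vehicle (FDR 0.00032). The epithelial genes Krt8, Krt18, Cdh1 and Epcam were listed in every comparison, and Ptprc, Cd3e, Lyz2 and Pecam1, markers of immune and endothelial cells, in none. The epithelial genes did not move together. In Padi4 WT spheroids Cdh1 was 8.70-fold and Epcam 7.16-fold lower (FDR 3.4e-06 and 4.0e-06), while Krt8 was 2.34-fold and Krt18 1.86-fold higher (FDR 0.00049 and 0.0033). With NEPs against apoDBs, Krt8, Krt18 and Epcam were 1.75-fold, 1.69-fold and 1.75-fold lower, and Cdh1 was 1.21-fold higher. The part of these differences in the values of the proteasome genes was not tested.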

How the data were processed

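RNA of 15 samples was compared by the authors with limma in 4 tables, each filtered on its own. The fold changes the authors deposited are a signed score (a ratio, or minus its inverse for genes that were lower) and were converted here to log2. The p-value the authors deposited is limma's, unadjusted. FDR was computed over all genes of a table by the Benjamini-Hochberg method. These columns hold the authors' comparisons. No values per sample were used, so no model was refitted. The aligner and the counting were not given in the sources used here. The submitters' processing notes name mm9, while 99.9% of the Ensembl identifiers, by which tables were joined, are in GENCODE M21 (GRCm38), used for positions.

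In each comparison the highest and the lowest gene of each role, the 4 highest and 4 lowest over all roles and all activators were named. Genes outside that rule were chosen after their values were seen. The members and lists were chosen with earlier results of these data known. Promoter windows are from RefSeq (GRCm38.p6). Python 3.11.15 with pandas 2.3.3, numpy 2.4.6, scipy 1.17.1 and matplotlib 3.10.9 was used, and the code was tested on simulated data. The alternatives were other limits, unadjusted p, genes in all 4 tables, joining by symbol, centring, means and, chosen after seeing the data, leaving out chromosome 3, centring on chromosomes and leaving out genes with shared sequence.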

Additional observations from a re-analysis of the deposited data

Results flagged for a closer look

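The effects of NEPs and of apoDBs, each against vehicle, differed for 20 of the 45 genes by the limma test of NEPs against apoDBs itself, which is the test of that difference because both are compared with the same vehicle samples. This is 44.4% of the genes, beside 54.8% of all 13419 genes called in either direction. On the log2 scale the difference, NEPs minus apoDBs, was 1.17 for Psme2b, 1.04 for Psme2 and 0.75 for Psme1. For the core subunits it was 0.64 for Psma5, 0.62 for Psmb4, 0.48 for Psma3, 0.27 for Psma1 and 0.22 for Psmb7. For the 19S particle it was 0.34 for Psmd8, 0.32 for Psmd6, 0.28 for Psmd4, 0.27 for Psmc2, 0.27 for Psmc6, 0.20 for Psmd1 and 0.14 for Psmc3. It was 0.23 for the chaperone Psmd9, 0.27 for Psme4, 0.13 for Psme3, 0.35 for Psmc3ip and -0.24 for Psmf1. Among these, the deposited comparisons with vehicle gave opposite signs for Psmf1, Psme4 and Psme3. Psmf1 was at -0.12 with NEPs and 0.12 with apoDBs, and Psme4 at 0.10 and -0.16. Psme3 was at 0.00 with NEPs, barely above no change, and at -0.13 with apoDBs. None of these values passed the test.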

How the results depend on the processing

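At an FDR below 0.01 the number of the 44 proteasome genes called fell from 16 to 8 in spheroids and from 19 to 9 with apoDBs against vehicle. With an added absolute log2 fold change above 0.5 the numbers were 9 in spheroids, 13 for NEPs and 0 for apoDBs against vehicle, and 5 for NEPs against apoDBs. The share of all genes was not computed at either of these limits. Whether the excess of proteasome genes over all genes holds there is therefore not known. By the study's limits they were 0 in all 4 comparisons. FDR over the genes of all 4 tables and joining by symbol gave the same numbers as the main setting. Unadjusted p gave 22, 34, 22 and 21, beside 7757 of 14053, 8236 of 13541, 7156 of 13307 and 8033 of 13419 genes. Over every setting tried the median log2 fold change stayed between 0.30 and 0.49 in spheroids. Against vehicle it stayed between 0.31 and 0.38 for NEPs and between 0.16 and 0.21 for apoDBs. For NEPs against apoDBs it stayed between 0.10 and 0.19. No setting moved it by more than the SD over the genes, which was 0.36, 0.30, 0.14 and 0.28 in the same order. That SD is the scatter of the genes and not the uncertainty of the median, so this is a weak check. No paired analysis was possible because the tables used hold 1 fold change and 1 p-value per gene and no values per sample, and for the same reason leaving out each replicate was not run. Depth and low expression could not be weighed for any gene, and a gene that missed the limit may still have changed.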
